A study of Mus musculus with 21 samples.

Results

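The livers of mice 3 h after PH were compared directly with those of mice 3 h after TCP, over all genes measured. PH is the surgical removal of 70% of the liver, and TCP is a single gavage of 3 mg/kg TCPOBOP in dimethyl sulphoxide and corn oil. The comparison took the 3 arrays titled as PH at 3 h and the 3 titled as TCP at 3 h, which are 6 of 21 liver mRNA arrays, each from 1 female CD-1 mouse aged 3 months. The other arrays came from PH and TCP at 1 and 6 h and from untreated control mice (CO), with 3 mice in each of the 7 groups. No group received a sham operation or the vehicle alone, and control livers were taken at a single time, so that anaesthesia, surgery, vehicle and time of day cannot be told apart from the treatments. The PH livers were the remnant left after resection, whereas the TCP and control livers were whole.

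Both treatments make resting hepatocytes enter the cell cycle. After PH the remnant responds to lost mass and portal flow, and an immediate early programme of transcription factors (AP-1, EGR and KLF families), NF-kB and STAT3 signalling from cytokines of the Kupffer cells, and growth factor release precede DNA synthesis. TCPOBOP binds the constitutive androstane receptor (CAR) in the hepatocyte, a nuclear receptor that turns on drug-metabolising enzymes such as Cyp2b10 and drives growth without previous loss of liver cells. The comparison at 3 h therefore sets the priming period of the 2 kinds of liver growth side by side.

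Of 11442 genes tested, 300 were called higher after PH than after TCP (2.62%) and 199 lower (1.74%), where a call needed a limma p under 0.05 after Benjamini-Hochberg adjustment together with a change of 1.5-fold or more. At an unadjusted p under 0.05 there were 2118 genes. The 3 PH arrays lay above the 3 TCP arrays in 1082 genes (9.46%) and below them in 1164 (10.2%). All values below are log2 signals or differences of log2 signals (PH minus TCP), after background correction and quantile normalisation, and the standard error (SE) is pooled over the 21 arrays. Differences of dim genes are compressed by the offset of 16 added to every signal. In whole liver, fewer cells of a type and less RNA per cell cannot be told apart.

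Against control, PH at 3 h raised 449 genes (3.92%) and lowered 401 (3.5%), while TCP at 3 h raised 58 (0.507%) and lowered 82 (0.717%). Of the 300 genes higher after PH than after TCP, 202 were called higher after PH than in control, 19 were called lower after TCP than in control, and 79 were called in neither. Of the 199 genes lower after PH, 92 were called lower after PH than in control, 20 were called higher after TCP than in control, and 87 in neither. These comparisons share arrays, so that the split is a description. The counts called higher and lower in each gene list below stand against the 2.62% and 1.74% of all genes.

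Some arrays stood apart. Correlations between pairs of arrays over the tested genes were averaged. PH replicate 2 had an average of 0.972 with the other PH arrays and 0.973 with the control arrays. For PH replicates 1 and 3 the averages were 0.979 and 0.976 with the other PH arrays, and 0.959 and 0.949 with the control arrays. The 6 arrays had 16210 to 17637 probes with a detection p under 0.05. Without PH replicate 2 limma called 842 genes, without PH replicate 1, PH replicate 3, TCP replicate 1 or TCP replicate 3 it called 269, 203, 264 and 297, and without TCP replicate 2 it called 461. Of the 300 higher and 199 lower calls, 107 and 41 were kept in every one of these 6 fits. For called genes described singly below, the arrays whose removal ended the call are named with the range of the difference over the 6 fits, and for members given together the number of calls kept is stated.

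The beadchips (glass slides that carry several arrays) were not shared. PH replicates 1 and 2 lay on beadchip 3 and PH replicate 3 on beadchip 4, while TCP replicate 1 lay on beadchip 1 and TCP replicates 2 and 3 on beadchip 2. No beadchip held both groups, so that no value within a beadchip can be had for the direct comparison. A model with the beadchip as a block links the groups through the other arrays, and it called 3 genes (0.0262%), with 1399 at an unadjusted p under 0.05 and standard errors larger by a median ratio of 1.57. In that model all 499 differences kept their sign, 475 were still at least 1.5-fold, and the median share of the difference kept was 1.07. Taken instead as the change against the control of the same beadchip, PH minus TCP had the same sign in 498 of the 499, with no test and with the 2 TCP arrays of beadchip 2 left out, since it held no control. The 499 were called on these same arrays, so that kept signs are no independent support.

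**Figure D1:**
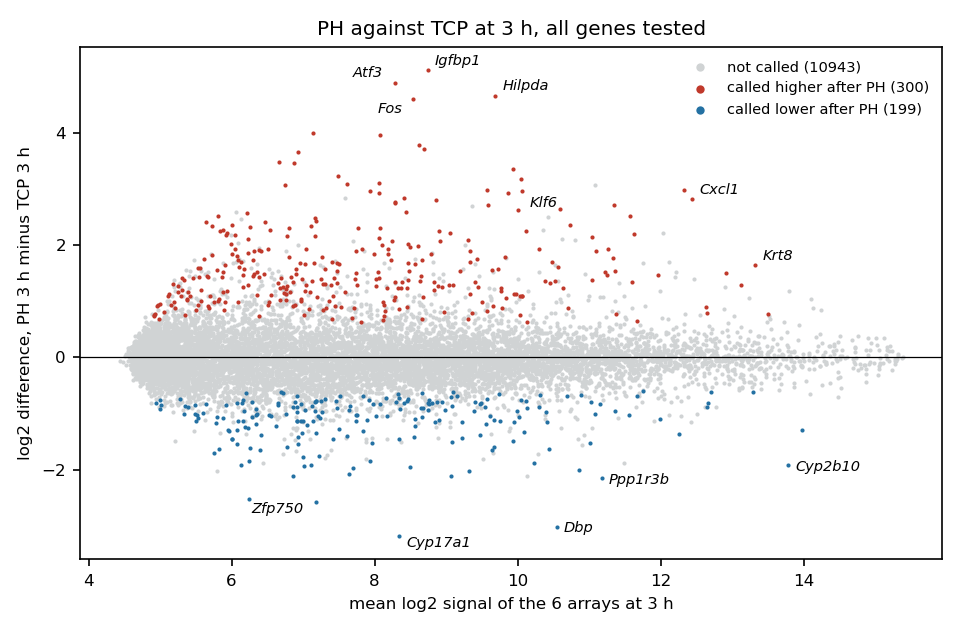
Log2 difference between PH 3 h and TCP 3 h (vertical axis) against the mean log2 signal of the 6 arrays (horizontal axis), 1 point for each of 11442 genes. The 300 genes called higher after PH reach 5.12 (Igfbp1), and the 199 called lower reach -3.18 (Cyp17a1).

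The 3 genes called with the beadchip as a block were Klf6, Jund and Gcnt2, all higher after PH. Klf6 (chromosome 13, 5861489 to 5870393, GRCm38.p6), a zinc finger transcription factor of the early growth response, had log2 signals of 11.11, 11.21 and 12.33 on PH arrays and 8.59, 8.43 and 8.73 on TCP arrays, against 9.04, 8.8 and 8.8 on control arrays. The PH arrays were thus all above the TCP arrays, which lay below the control arrays. The difference was 2.97 ± 0.35 (SE, adjusted p = 0.000281 by limma), and 3.53 in the block model, where its adjusted p was 0.0463. A second Klf6 probe gave 2.54 (SE 0.41). Jund (chromosome 8, 70697739 to 70700616), a subunit of AP-1, was at 7.82, 8.28 and 8.76 after PH and 5.07, 6.57 and 6.17 after TCP, against 5.69, 5.66 and 5.97 in control. Its difference was 2.35 ± 0.35 (SE, adjusted p = 0.00107 by limma), and 2.86 in the block model (adjusted p 0.0463). Gcnt2 (chromosome 13, 40859768 to 40960892), which makes branched carbohydrate chains, was at 12.11, 11.1 and 12.51 after PH and 9.47, 9.65 and 9.5 after TCP, against 10.3, 10.17 and 9.94 in control. It differed by 2.36 ± 0.28 (SE, adjusted p = 0.000281 by limma), and by 2.79 in the block model (adjusted p 0.0463), while its other probes gave 0.66 (SE 0.33) and 0.89 (SE 0.51).

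The early response list, made mostly of transcription factors, was the group in which most members differed. It also holds other early genes, among them Zfp36, Zfp36l1, Btg2 and Ier3. Of the 24 measured genes of AP-1, EGR and related factors, 17 were higher after PH, against 2.62% of all genes, and none was lower. The median difference of the list was 1.96, where the median over all tested genes was -0.0233. Against control the list medians were 2.34 for PH and 0.07 for TCP. Fos, the inducible partner of JUN in AP-1, had log2 signals of 9.96, 10.9 and 11.67 after PH and 6.18, 5.83 and 6.71 after TCP, against 6.04, 5.72 and 4.8 in control. All 3 PH arrays were above the other 6, with a difference of 4.6 ± 0.76 (SE, adjusted p = 0.0022 by limma). Egr1, a zinc finger factor induced by growth factors, was at 13.89, 13.26 and 14.28 after PH and 10.4, 10.19 and 11.89 after TCP, against 11.75, 11.68 and 10.85 in control. Here TCP replicate 3 was the highest TCP array and the groups still did not overlap. The Egr1 difference was 2.98 ± 0.61 (SE, adjusted p = 0.00858 by limma), and its call was lost without PH replicate 3 (range 2.66 to 3.52).

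Among other early genes, Btg2, an antiproliferative gene of the p53 response, was at 8.26, 7.6 and 9.36 after PH and 4.84, 5.15 and 4.78 after TCP, against 4.57, 4.41 and 4.6 in control, and was detected on 1 of 3 TCP arrays. It differed by 3.48 ± 0.66 (SE, adjusted p = 0.00519 by limma). Ier3, a survival gene of the early response, was at 8.63, 10.37 and 9.85 after PH and 6.85, 6.52 and 6.17 after TCP, against 6.45, 5.92 and 6.25 in control, and differed by 3.11 ± 0.44 (SE, adjusted p = 0.000886 by limma). Zfp36, which destabilises cytokine mRNA, was at 12.24, 13.44 and 12.44 after PH and 9.27, 10.66 and 10.03 after TCP, against 10.18, 9.99 and 9.65 in control, and differed by 2.72 ± 0.44 (SE, adjusted p = 0.00208 by limma). In each of these 3 genes PH was above TCP on every array, and the mean of TCP differed from that of control by 0.4, 0.31 and 0.05. Maff, a small MAF factor, differed by 3.08 ± 0.64 (SE, adjusted p = 0.00891 by limma), with its call lost without PH replicate 3 (range 2.65 to 3.56) and a second probe at 0.58 (SE 0.33). Egr2 was not detected on any TCP array and was at least 3.57-fold higher after PH (limma adjusted p = 0.0114), with its call lost without PH replicate 3 (range of the log2 difference 1.65 to 2.84). Junb, Fosb, Jun, Klf2, Srf, Mafk, Klf4 and Zfp36l1 were also higher, by 0.77 to 2.63, and 8 of the 17 calls were kept in every fit that left out 1 array. Fosl2, an AP-1 subunit that was called higher than control after both treatments, did not pass the test of the direct difference (0.74, SE 0.47, adjusted p = 0.436). In the block model all 17 called members differed by at least 1.5-fold in the same direction, 2 of them past the threshold.

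**Figure D2:**
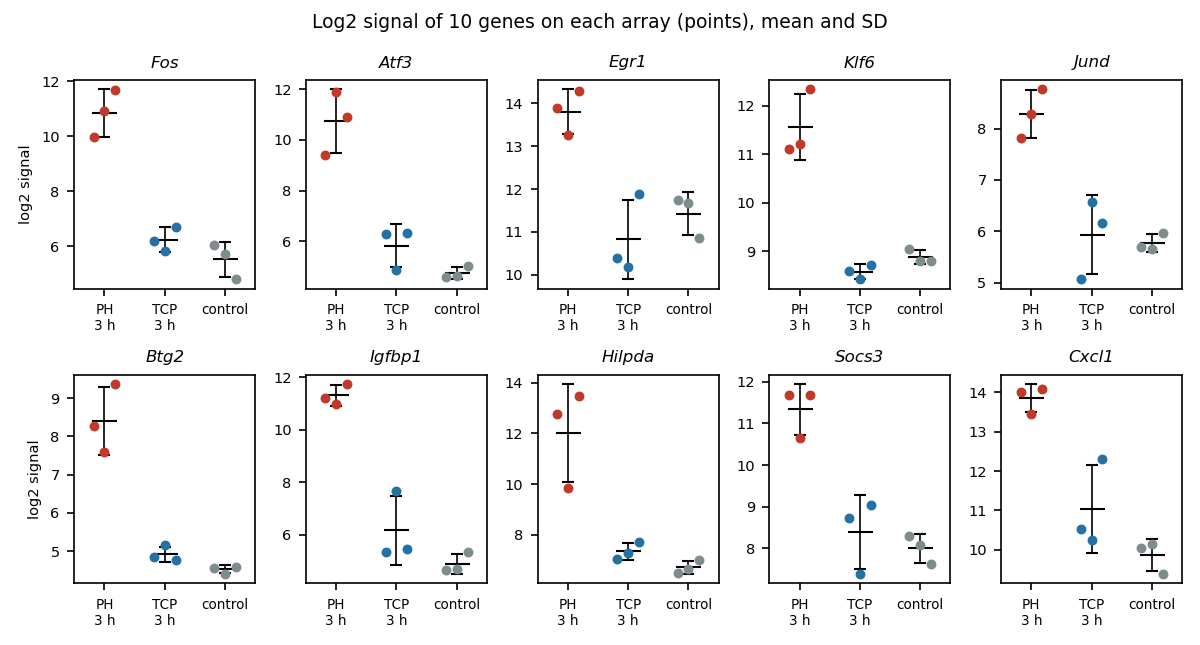
Log2 signal (vertical axis) of 10 genes on the arrays of PH 3 h, TCP 3 h and control, in this order on the horizontal axis. Points are arrays, lines the mean and bars the SD (n = 3). In each gene the 3 PH arrays lie above the 3 TCP arrays, and the mean difference is largest for Igfbp1 (5.12).

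Feedback regulators of MAP kinases and stress genes joined these early genes in part. Dusp5, a nuclear phosphatase of ERK, was at 8.78, 6.96 and 10.08 after PH and 5.07, 5.42 and 4.92 after TCP, against 5.01, 5.31 and 4.76 in control, a difference of 3.47 ± 0.59 (SE, adjusted p = 0.00257 by limma). Dusp8, a phosphatase of JNK and p38, differed by 2.27 ± 0.49 (SE, adjusted p = 0.0112 by limma), with its call lost without PH replicate 1 or 3 (range 1.82 to 2.95). Dusp7, another ERK phosphatase, was the list's lower gene, at 5.13, 5.73 and 5.43 after PH and 6.69, 6.53 and 6.98 after TCP, against 6.78, 6.65 and 6.83 in control (difference -1.3, SE 0.26, adjusted p = 0.00715 by limma). Of the 14 measured members 3 were higher and 1 was lower, Dusp10 being the remaining higher one (1.04), with its call lost without PH replicate 3 or TCP replicate 1 (range 0.81 to 1.24) and a second probe at 0.48 (SE 0.29). Among 24 genes of the integrated stress response, 3 were higher. Atf3, a stress-induced transcription factor, had log2 signals of 9.41, 11.89 and 10.91 after PH and 6.29, 4.88 and 6.35 after TCP, against 4.61, 4.63 and 5.03 in control, and differed by 4.9 ± 0.9 (SE, adjusted p = 0.00417 by limma). PH replicate 2, low for many genes, was the highest of the PH arrays here. Ppp1r15a, the stress-induced regulator that restores translation, was at 8.45, 9.85 and 9.54 after PH and 7.18, 7.61 and 6.83 after TCP, against 6.85, 6.89 and 7.17 in control (difference 2.07, SE 0.42, adjusted p = 0.00823 by limma). Chac1, a glutathione-degrading enzyme, was at 9.21, 10.72 and 8.63 after PH and 5.23, 8.25 and 6.31 after TCP, against 8.46, 8.45 and 8.77 in control. All TCP arrays lay below control, PH replicates 1 and 2 lay above it and PH replicate 3 within it. The difference was 2.93 ± 0.67 (SE, adjusted p = 0.0155 by limma), and its call was lost without TCP replicate 1 or 3 (range 2.25 to 3.76). Of 14 heat shock genes Dnajb4 was called higher (0.85). Its call was lost without PH replicate 1 or 2 or TCP replicate 2 or 3 (range 0.75 to 0.97), and its second probe had the opposite sign (-0.55, SE 0.29). None of 22 chaperones of the endoplasmic reticulum was called in either direction (median 0.26).

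Promoter sequence was read for the genes called, as the 300 bases from 250 before to 50 after a transcription start in RefSeq (GRCm38.p6), where 399 of the 499 called genes had an entry and some had several starts. The cAMP response element TGACGTCA was present on either strand in 5.75% of the 313 promoters of genes higher after PH, in 1.91% of the 209 promoters of genes lower after PH, and in 2.84% of the 11813 promoters of all tested genes. The AP-1 motif TGANTCA was in 7.99%, 1.44% and 5.72% of these sets, the serum response element (CArG box) in 3.19%, 2.39% and 1.41%, and the NF-kB motif in 13.4%, 9.57% and 10.2%. For the E-box CACGTG the shares were 10.9%, 10.5% and 9.82%, and for the D-box TTANGTAA 0.639%, 2.39% and 1.69%. In all 32851 promoters of the table the cAMP response element, AP-1, CArG, NF-kB, E-box and D-box motifs were in 1.79%, 7.81%, 1.63%, 8.46%, 7.15% and 2.32%. The windows of 1 gene can overlap, a match is a description of letters only, and no test was made. The stretches below show genes higher after PH whose windows held such matches, and Per3, a clock gene lower after PH, with 2 D-boxes. Capitals mark the matches named for each gene in the paragraph after the sequences, and the sequences run 5′ to 3′ on the strand of the gene.

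Btg2 (chr1:134079266-134079345, minus strand): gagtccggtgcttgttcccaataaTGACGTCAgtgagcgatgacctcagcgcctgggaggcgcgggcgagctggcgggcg
Dusp8 (chr7:142095320-142095409, minus strand): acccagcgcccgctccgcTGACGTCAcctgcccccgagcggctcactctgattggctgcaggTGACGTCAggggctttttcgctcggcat
Csrnp1 (chr9:119983024-119983143, minus strand): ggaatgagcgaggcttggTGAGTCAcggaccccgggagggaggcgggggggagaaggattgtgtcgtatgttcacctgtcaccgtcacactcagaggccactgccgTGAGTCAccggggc
Dusp5 (chr19:53529035-53529104, plus strand): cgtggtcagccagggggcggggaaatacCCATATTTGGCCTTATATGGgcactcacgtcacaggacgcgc
Cxcl1 (chr5:90891145-90891204, plus strand): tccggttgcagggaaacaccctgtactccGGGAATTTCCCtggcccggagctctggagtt
Tnfaip3 (chr10:19015411-19015560, minus strand): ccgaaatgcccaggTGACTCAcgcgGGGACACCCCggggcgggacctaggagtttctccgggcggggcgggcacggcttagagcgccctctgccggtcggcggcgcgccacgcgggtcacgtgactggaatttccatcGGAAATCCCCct
Per3 (chr4:151044811-151044880, minus strand): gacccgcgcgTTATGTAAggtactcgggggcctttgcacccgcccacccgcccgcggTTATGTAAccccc

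In Btg2 the cAMP response element began 166 bases before the start, and in Dusp8 such elements began 107 and 63 bases before it. Csrnp1, an AXIN-induced nuclear protein gene, held AP-1 motifs at 102 and 14 bases before the start, on each occasion as TGAGTCA. Its log2 signals were 11.81, 10.81 and 12.31 after PH and 8.1, 8.68 and 8.58 after TCP, against 9.0, 8.87 and 8.38 in control (difference 3.19, SE 0.67, adjusted p = 0.00934 by limma), with its call lost without PH replicate 3 (range 2.86 to 3.6). Dusp5 held 2 CArG boxes end to end, from 82 bases before the start. In Cxcl1 the capitals are 2 NF-kB matches shifted by a single base, from 71 bases before the start. Tnfaip3 held an AP-1 match at 136 and NF-kB matches at 125 and 12 bases before the start, and its stretch also holds an E-box, left in lower case. Per3 held D-boxes at 205 and 158 bases before its start.

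Receptors and feedback inhibitors of NF-kB and some chemokines that attract neutrophils were higher after PH. Of 22 genes of the NF-kB list, 10 were higher after PH and none was lower (median 1.06, against control 0.94 for PH and 0.21 for TCP). Cd14, the endotoxin co-receptor, was at 10.83, 8.95 and 11.87 after PH and 6.95, 6.84 and 6.71 after TCP, against 6.23, 6.36 and 6.41 in control, a difference of 3.72 ± 0.54 (SE, adjusted p = 0.00106 by limma). Tnfrsf12a, the receptor of TWEAK and itself an early growth gene, was at 11.51, 8.24 and 11.82 after PH and 6.9, 6.84 and 6.45 after TCP, against 6.39, 6.39 and 6.46 in control (difference 3.79, SE 0.58, adjusted p = 0.00139 by limma). In both genes PH replicate 2 was the lowest PH array and still above every TCP array. Irak2, a kinase downstream of Toll-like and interleukin 1 receptors, was at 10.05, 10.16 and 10.64 after PH and 8.86, 7.71 and 8.61 after TCP, against 8.32, 8.36 and 8.2 in control (difference 1.89, SE 0.29, adjusted p = 0.00146 by limma). The other Irak2 probes gave 0.64 (SE 0.36) and 1.6 (SE 0.39). Tnfaip3, which encodes the NF-kB inhibitor A20, was at 6.69, 7.59 and 7.15 after PH and 4.68, 5.16 and 5.04 after TCP, against 5.55, 5.11 and 4.86 in control (difference 2.18, SE 0.49, adjusted p = 0.0143 by limma), with its call lost without PH replicate 3 or TCP replicate 1 (range 1.96 to 2.4). Tnfrsf1b, Nfkbiz, Icam1, Relb, Tlr2 and Tnip1 were also higher, by 1.03 to 1.71, and of the 10 calls 4 were kept in every fit that left out 1 array.

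Among 16 chemokines 3 were higher after PH. Cxcl1, a chemoattractant of neutrophils, was at 14.02, 13.44 and 14.09 after PH and 10.53, 10.26 and 12.31 after TCP, against 10.05, 10.14 and 9.39 in control, and differed by 2.82 ± 0.52 (SE, adjusted p = 0.0043 by limma). Ccl4, a chemokine of macrophages, was at 7.01, 7.28 and 7.29 after PH and 4.61, 4.68 and 5.19 after TCP, against 4.83, 4.6 and 5.16 in control (difference 2.37, SE 0.27, adjusted p = 0.000281 by limma). Cxcl2, close to Cxcl1 in function, was at 5.97, 6.45 and 7.04 after PH and 4.43, 4.45 and 5.33 after TCP, against 4.44, 4.4 and 4.58 in control (difference 1.75, SE 0.33, adjusted p = 0.00475 by limma). For Cxcl1 all 3 TCP arrays lay above all control arrays, and for Cxcl2 only TCP replicate 3 did. In both genes all TCP arrays lay below all PH arrays. Among 11 cytokines 2 were higher. Il1b was at 7.12, 7.0 and 7.36 after PH and 5.05, 5.56 and 5.25 after TCP, against 5.31, 5.44 and 4.77 in control (difference 1.87, SE 0.31, adjusted p = 0.0022 by limma). Il1a was not detected on any TCP array and was at least 1.62-fold higher after PH (limma adjusted p = 0.0248), with its call lost without PH replicate 1 or 3 or TCP replicate 1 or 2 (range of the log2 difference 1.09 to 1.29).

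In the interleukin 6 pathway 2 of 19 genes were higher, against 2.62% of all genes. Socs3, the feedback inhibitor of STAT3, had log2 signals of 11.69, 10.64 and 11.68 after PH and 8.74, 7.39 and 9.05 after TCP, against 8.3, 8.08 and 7.62 in control, and differed by 2.94 ± 0.49 (SE, adjusted p = 0.0022 by limma). Ptpn2, a phosphatase of JAK and STAT proteins, differed by 0.99 ± 0.25 (SE, adjusted p = 0.0309 by limma), with its call lost without PH replicate 3 or TCP replicate 1, 2 or 3 (range 0.66 to 1.25). Of 24 acute-phase proteins 1 was called higher, angiotensinogen, against 2.62% of all genes. Its call was lost without PH replicate 1 or 3 or TCP replicate 2 or 3, and the median of the list was 0.22. With the beadchip as a block Cd14, Cxcl1, Ccl4, Il1b and Socs3 differed by 3.61, 3.29, 2.14, 2.42 and 3.17, with adjusted p of 0.101, 0.143, 0.0743, 0.0743 and 0.137.

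Neutrophil markers moved with these genes. Of 12 measured markers 4 were higher after PH, and the summed linear signal of the list was 4480 to 7810 on PH arrays, 1670 to 4130 on TCP arrays and 1060 on every control array. The sum runs over all 12 markers, called or not, and the share of each marker in it was not examined. One of them, Lcn2, is also in the lists of acute-phase proteins and glucocorticoid responsive genes, so that the sum is not a measure of neutrophils alone. On every array of the group 7 of the 12 markers were detected after PH, 5 after TCP and 2 in control. S100a9, a calcium-binding protein of neutrophils, was at 8.72, 9.55 and 9.96 after PH and 5.8, 6.8 and 6.76 after TCP, against 4.6, 4.84 and 5.25 in control (difference 2.96, SE 0.56, adjusted p = 0.00519 by limma). S100a8, its partner, was at 9.06, 9.77 and 10.21 after PH and 5.71, 7.84 and 7.14 after TCP, against 4.62, 4.98 and 5.33 in control. All 3 TCP arrays were above all control arrays for both genes, although neither gene was called in TCP against control. The S100a8 difference was 2.78 ± 0.68 (SE, adjusted p = 0.0235 by limma), with its call lost without PH replicate 3 or TCP replicate 1 or 3 (range 2.19 to 3.26). Retnlg, a resistin-like protein of neutrophils, differed by 1.94 ± 0.38 (SE, adjusted p = 0.00578 by limma), and Fpr2, a formyl peptide receptor, by 1.43 ± 0.34 (SE, adjusted p = 0.0221 by limma), the Fpr2 call being lost without any 1 of the arrays but PH replicate 2 (range 1.37 to 1.54). The part of these cells in the chemokine and NF-kB results was not tested.

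Markers of the other cell types were read in the same way. All 12 hepatocyte markers were detected on every array, with a summed signal of 214000 to 264000 on PH arrays, 242000 to 265000 on TCP arrays and 195000 to 269000 on control arrays, and none was called. Of 15 measured Kupffer cell and macrophage markers none was called (3340 to 4850 on PH arrays, 3510 to 4820 on TCP arrays, 2810 to 3560 on control arrays). Sinusoidal endothelial markers summed to 6840 to 7920 on PH arrays and 8040 to 11100 on TCP arrays, against 7480 to 8810 on control arrays, with none of 16 called. Stellate cell markers overlapped between the groups, as did those of lymphocytes. Red blood cell markers summed to 38200 to 58600 on PH arrays and 19400 to 25900 on TCP arrays, against 50700 to 82600 on control arrays, so that the TCP livers were lowest. Hba-a1, an alpha globin, was at 14.73, 14.34 and 14.09 after PH and 13.35, 13.41 and 12.81 after TCP, against 15.24, 15.28 and 14.47 in control, and its difference of 1.19 did not pass the test (SE 0.42, adjusted p = 0.117). The part of blood content in the other results was not tested. In the list of cholangiocyte markers Sox9, a transcription factor of bile ducts and progenitor cells, was the called gene, and the summed signal of the list was 841 to 6620 on PH arrays and 397 to 484 on TCP arrays, against 350 to 469 on control arrays. The log2 signals of Sox9 were 12.64, 9.52 and 12.66 after PH and 8.15, 8.04 and 8.56 after TCP, against 8.4, 8.17 and 7.98 in control (difference 3.36, SE 0.62, adjusted p = 0.00417 by limma), with PH replicate 2 well below the other PH arrays. Krt7, a defining marker of bile ducts, was detected on 3 of 3 PH arrays and 1 of 3 TCP arrays, at 5.46, 5.27 and 5.18 after PH and 5.29, 4.9 and 5.09 after TCP.

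Cytoskeletal and adhesion genes that respond to serum formed another group higher after PH. Of 25 measured genes 11 were higher and none lower (median 1.06), and 7 of the calls were kept in every fit that left out 1 array. Krt8, a keratin of the hepatocyte, was at 14.18, 13.3 and 14.93 after PH and 12.43, 12.39 and 12.68 after TCP, against 12.54, 12.57 and 12.5 in control (difference 1.64, SE 0.28, adjusted p = 0.00272 by limma), and Krt18, its filament partner, differed by 1.47 ± 0.29 (SE, adjusted p = 0.00623 by limma). The TCP and control arrays of Krt8 overlapped, below all PH arrays. Tubb6, a beta tubulin, was at 11.47, 9.29 and 12.06 after PH and 8.48, 7.91 and 8.3 after TCP, against 8.93, 9.15 and 8.39 in control (difference 2.71, SE 0.45, adjusted p = 0.0022 by limma). Tubb2a, another beta tubulin, differed by 2.17 ± 0.4 (SE, adjusted p = 0.00432 by limma), Rhob, a small GTPase, by 1.75 ± 0.3 (SE, adjusted p = 0.00269 by limma), and Tpm4, a tropomyosin, by 1.79 ± 0.38 (SE, adjusted p = 0.0108 by limma), the Tpm4 call being lost without PH replicate 3 or TCP replicate 3 (range 1.22 to 2.42). Ccn1, a matrix protein of the serum response, was at 7.42, 9.3 and 9.57 after PH and 5.04, 5.02 and 5.26 after TCP, against 5.96, 6.02 and 5.67 in control, so that TCP lay below control. It differed by 3.66 ± 0.78 (SE, adjusted p = 0.0104 by limma), with its call lost without PH replicate 3 (range 3.25 to 4.33). Tubb2b, Zyx, Rhou and Vcl were the other called members, at 1.09 to 1.47, of which Zyx and Rhou kept their calls in each of these fits.

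Of 20 genes of plasminogen activation, matrix proteases, their inhibitors, growth factors and receptors, 7 were higher after PH and none was lower. Hbegf, a ligand of the EGF receptor that is shed at the cell surface, was at 9.65, 7.17 and 10.5 after PH and 6.18, 5.85 and 5.57 after TCP, against 5.6, 5.97 and 6.06 in control (difference 3.24, SE 0.75, adjusted p = 0.0167 by limma). Its call was lost without PH replicate 1 or 3 or TCP replicate 3 (range 2.54 to 4.21). Btc, another ligand of this receptor, was at 6.64, 6.43 and 6.66 after PH and 5.19, 5.09 and 5.14 after TCP, against 5.07, 5.29 and 5.07 in control (difference 1.43, SE 0.24, adjusted p = 0.0022 by limma). Both ligands lay above TCP on every PH array. Timp1, an inhibitor of matrix metalloproteases, was at 7.01, 6.58 and 7.43 after PH and 4.99, 4.84 and 5.42 after TCP, against 4.84, 4.99 and 5.35 in control (difference 1.93, SE 0.26, adjusted p = 0.000747 by limma). Adamts4, a matrix protease not detected on any TCP array, was at least 3.72-fold higher after PH (limma adjusted p = 0.00675). Plaur, the urokinase receptor, was not detected on any TCP array either and was at least 1.87-fold higher (adjusted p = 0.0246), with its call lost without PH replicate 1 or 3 or TCP replicate 1 or 3 (range of the log2 difference 1.1 to 1.87). Timp3, another metalloprotease inhibitor, differed by 1.25, with its call lost without PH replicate 1 or 3 or TCP replicate 1 or 3 (range 1.08 to 1.58), and its other probes gave 0.21 (SE 0.21) and 0.54 (SE 0.43). Adamts1, a matrix protease, differed by 1.0, with its call lost without PH replicate 1 or 3 or TCP replicate 2 or 3 (range 0.8 to 1.12), and 3 of the 7 calls were kept in every fit that left out 1 array. Among 18 regulators of TGF-beta and activin signals 3 were higher, the SMAD corepressors Tgif1 (difference 1.85, SE 0.27, adjusted p = 0.00103 by limma), Skil (1.3) and Ski (0.68). The other Tgif1 probes gave 0.76 (SE 0.47) and 0.98 (SE 0.33). The call of Skil was lost without PH replicate 1 or TCP replicate 1 or 3 (range 1.06 to 1.5) and that of Ski without PH replicate 1 (range 0.61 to 0.77), and a second Ski probe had a difference of -0.22 (SE 0.26).

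**Figure D3:**
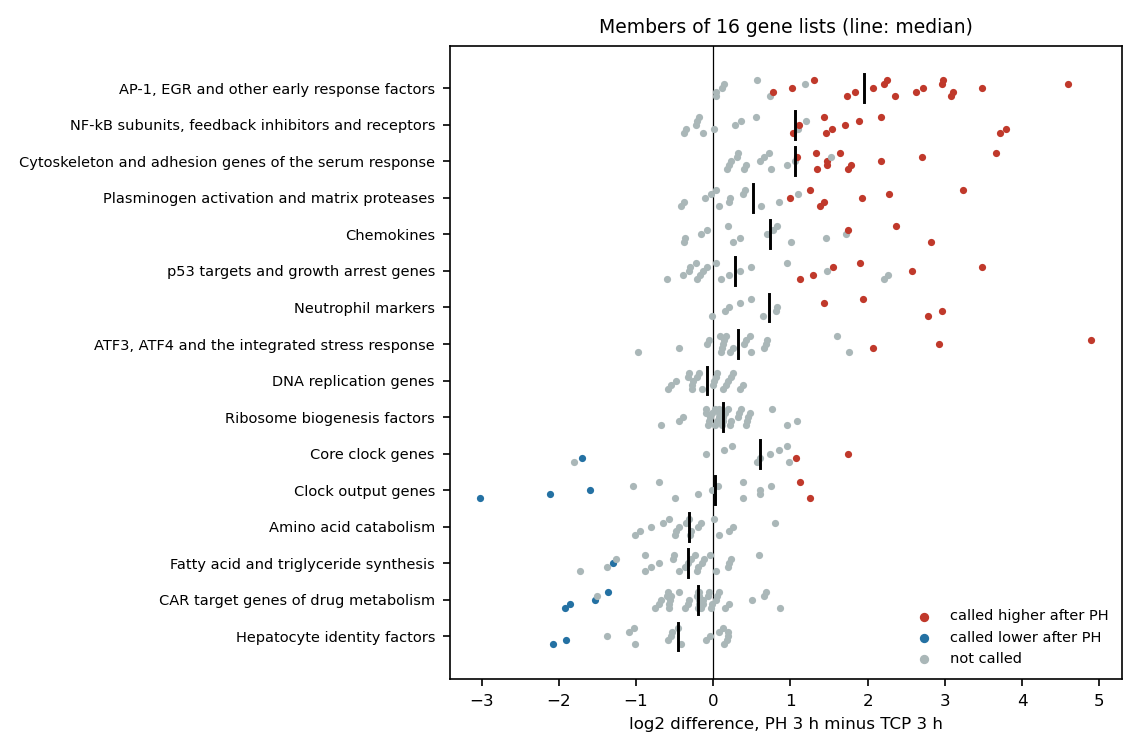
Log2 difference between PH 3 h and TCP 3 h (horizontal axis) of the measured members of 16 gene lists (rows). Each point is a gene, coloured by its call, and the black line is the median of the list, from 1.96 for the early response factors to -0.46 for the hepatocyte identity factors.

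Growth arrest genes were higher after PH in 6 of 24 members, with Btg2 among them, and none of the DNA replication genes was called. Trp53inp1, a p53-induced nuclear protein, was at 12.32, 11.85 and 11.97 after PH and 10.05, 10.48 and 9.9 after TCP, against 9.95, 9.52 and 9.27 in control (difference 1.9, SE 0.39, adjusted p = 0.00744 by limma). Plk3, a stress-responsive polo-like kinase, was at 12.22, 11.94 and 12.24 after PH and 10.46, 10.77 and 10.53 after TCP, against 9.66, 9.65 and 9.19 in control (difference 1.55, SE 0.34, adjusted p = 0.0129 by limma), with its call lost without PH replicate 1 or 3 or TCP replicate 1 (range 1.48 to 1.64). Plk2, of the same family, differed by 1.29 ± 0.25 (SE, adjusted p = 0.00559 by limma). Ccng2, an atypical cyclin of growth arrest, was at 7.71, 8.48 and 6.32 after PH and 4.68, 5.54 and 4.57 after TCP, against 7.02, 7.07 and 7.1 in control. All TCP arrays lay below all control arrays, without a call against control (adjusted p = 0.0866), and the difference between the treatments was 2.58 ± 0.59 (SE, adjusted p = 0.0165 by limma), which was 1.02 with the block and whose call was lost without PH replicate 1 or 2 or TCP replicate 1 or 3 (range 2.09 to 3.17). Mdm2, the p53 inhibitor, differed by 1.13 ± 0.26 (SE, adjusted p = 0.0152 by limma), its call being lost without PH replicate 1 or 3 or TCP replicate 1 or 3 (range 0.82 to 1.45).

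Cdkn1a, the p21 inhibitor of cyclin-dependent kinases, had log2 signals of 12.07, 10.66 and 11.72 after PH and 7.9, 11.11 and 8.64 after TCP, against 6.34, 6.15 and 6.86 in control. TCP replicate 2 lay within the PH arrays, and the difference of 2.27 did not pass the test (SE 0.74, adjusted p = 0.0927), although PH was above control by 5.03 (adjusted p = 0.000399). Gadd45a, a stress sensor that slows the cycle, was at 10.94, 12.42 and 11.69 after PH and 10.6, 8.72 and 11.29 after TCP, against 7.69, 8.09 and 8.17 in control, with a difference of 1.48 (SE 0.65, adjusted p = 0.226). Gadd45b, its relative and a known target of CAR, was at 10.34, 10.93 and 10.81 after PH and 9.08, 10.05 and 10.11 after TCP, against 5.36, 5.31 and 5.69 in control. It was called higher than control after both treatments, by 5.24 after PH and 4.3 after TCP (adjusted p = 0.000366 and 0.00981), and the difference between them was 0.95 (SE 0.75, adjusted p = 0.562). Ccnd1, the cyclin of G1 entry, was at 11.68, 11.72 and 11.62 after PH and 12.75, 12 and 11.9 after TCP, against 12.43, 12.6 and 12.25 in control, with a difference of -0.55 (SE 0.3, adjusted p = 0.362). Its other probes gave -0.6 (SE 0.3) and -1.14 (SE 0.37). On the probe shown, TCP replicate 1 lay above the control arrays and the other TCP arrays below them, as did all PH arrays.

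Of 17 genes of G1 control, E2f3 (0.99) and Rb1 (0.9) were called higher, and both calls were lost without PH replicate 1, TCP replicate 1 or TCP replicate 3, that of E2f3 also without PH replicate 3 (ranges 0.83 to 1.2 and 0.63 to 1.24). Their second probes gave 0.42 (SE 0.31) and 0.41 (SE 0.24). The median of the 22 DNA replication genes was -0.07. Of 19 mitosis genes 1 was called, the kinesin Kif22 at 6.41, 6.6 and 6.16 after PH and 4.88, 4.8 and 5.18 after TCP, against 7.84, 7.51 and 6.11 in control (difference 1.44, SE 0.38, adjusted p = 0.0349 by limma), with its call lost without any 1 of the 6 arrays (range 1.33 to 1.55). The mitosis list had medians of -1.42 for PH and -1.65 for TCP against control, so that by the list median both treatments lay below control and near each other. None of 32 ribosome biogenesis factors was called either (median 0.12), while 9 of them were called higher than control after PH (3.92% of all genes were) and 0 after TCP (0.507%).

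Metabolic genes differed in both directions. Igfbp1, which binds insulin-like growth factors in plasma, had the largest difference of all. Its log2 signals were 11.21, 10.97 and 11.73 after PH and 5.37, 7.69 and 5.48 after TCP, against 4.67, 4.7 and 5.35 in control, and the difference was 5.12 ± 0.86 (SE, adjusted p = 0.00237 by limma), or 4.44 in the block model (adjusted p 0.203). TCP replicate 2 was the highest of the TCP arrays and lay far below PH. Pdk4, which blocks the oxidation of pyruvate, was at 11.37, 9.66 and 12.15 after PH and 7.48, 7.1 and 9.62 after TCP, against 6.12, 5.85 and 6.41 in control (difference 2.99, SE 0.81, adjusted p = 0.0407 by limma). TCP replicate 3 nearly reached PH replicate 2, the lowest PH array, and the call was lost without PH replicate 1 or 3 or TCP replicate 1 or 2 (range 2.45 to 3.77). Hilpda, a lipid droplet protein induced by hypoxia and fatty acids, was at 12.75, 9.84 and 13.47 after PH and 7.04, 7.27 and 7.73 after TCP, against 6.5, 6.66 and 7.01 in control (difference 4.67, SE 0.89, adjusted p = 0.00519 by limma), and a second probe gave 3.92 (SE 0.93). Of 21 hypoxia genes Kdm3a was the other higher one, with 0.66, a call lost without PH replicate 1 or 2 or TCP replicate 1 or 3 (range 0.54 to 0.82), and its other probes gave 0.43 (SE 0.2) and 0.42 (SE 0.31).

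Lipid signalling enzymes were higher in 3 of 23 members of the sphingolipid and choline list. Sphk1, which makes sphingosine 1-phosphate, was at 9.49, 7.76 and 10.17 after PH and 4.62, 5.94 and 4.84 after TCP, against 5.13, 4.71 and 4.5 in control (difference 4.01, SE 0.54, adjusted p = 0.000747 by limma). It was detected on 1 of 3 TCP arrays, and a second, dimmer probe differed by 0.11 (SE 0.23). Chka, the first kinase of phosphatidylcholine synthesis, was at 9.3, 9.75 and 11.12 after PH and 6.01, 6.91 and 5.37 after TCP, against 6.12, 5.83 and 5.9 in control (difference 3.96, SE 0.56, adjusted p = 0.000886 by limma), with a second probe at 2.88 (SE 0.45). Ugcg, which makes glucosylceramide, differed by 1.19 ± 0.28 (SE, adjusted p = 0.018 by limma), its call being lost without PH replicate 1 or 3 or TCP replicate 2 (range 0.85 to 1.43). In each of these 3 genes all PH arrays lay above all TCP arrays. Slc25a25, a mitochondrial carrier of ATP-Mg and phosphate, was at 12.47, 13.13 and 12.87 after PH and 9.55, 10.76 and 10.61 after TCP, against 9.89, 10.09 and 9.85 in control (difference 2.52, SE 0.42, adjusted p = 0.0022 by limma). Smox, which oxidises spermine, differed by 1.4 ± 0.38 (SE, adjusted p = 0.0428 by limma), where of its 4 other probes 1 differed by 1.41 and the remaining 3 by 0.09, 0.27 and 0.5, and the call was lost without any 1 of the arrays but PH replicate 2 (range 0.96 to 1.94).

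CAR target genes were lower after PH than after TCP in 4 of 41 measured members, against 1.74% of all genes, and none was higher (median -0.20). Cyp2b10, the P450 that marks CAR activation, had log2 signals of 12.63, 13.14 and 12.69 after PH and 14.78, 14.75 and 14.7 after TCP, against 12.8, 12.66 and 11.64 in control. The TCP arrays lay close together and above all PH and control arrays, with a difference of -1.92 ± 0.25 (SE, adjusted p = 0.000667 by limma). The block model gave -1.9 (adjusted p 0.0764), and a second probe had -1.95 (SE 0.38). Cyp2b23, of the same subfamily, was at 11.32, 11.8 and 11.63 after PH and 13.47, 12.71 and 12.64 after TCP, against 11.37, 11.48 and 11.46 in control (difference -1.36, SE 0.29, adjusted p = 0.0101 by limma), with its call lost without PH replicate 1 or TCP replicate 1 (range -1.51 to -1.09). Probes of the Cyp2b genes may share targets, since these genes are close copies of each other. Sult1d1, a sulphotransferase, was at 10.27, 10.47 and 9.98 after PH and 11.86, 11.37 and 12.1 after TCP, against 10.42, 10.51 and 10.97 in control (difference -1.53, SE 0.23, adjusted p = 0.00107 by limma), while a second, dimmer probe differed by -0.23 (SE 0.25). Cyp2c55, a P450 induced by xenobiotics, was at 6.52, 7.46 and 7.05 after PH and 9.52, 7.99 and 9.09 after TCP, against 7.27, 7.67 and 6.17 in control (difference -1.85, SE 0.49, adjusted p = 0.036 by limma), with its call lost without PH replicate 1 or 3 or TCP replicate 1 or 3 (range -2.29 to -1.53). For these 4 genes all TCP arrays lay above all control arrays, and TCP was called higher than control in all but Cyp2c55 (adjusted p = 0.0774).

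Among flavin monooxygenases and genes of haem metabolism 2 of 15 were lower after PH. Fmo5, a flavin monooxygenase, was at 11.38, 11.31 and 11.64 after PH and 12.01, 12.88 and 12.71 after TCP, against 10.79, 10.67 and 11.17 in control (difference -1.09, SE 0.23, adjusted p = 0.0101 by limma), and it rose against control after TCP by 1.65 (adjusted p = 0.00159). Hmox2, a haem oxygenase, was at 8.75, 8.53 and 8.35 after PH and 9.6, 9.25 and 9.19 after TCP, against 8.43, 8.29 and 8.55 in control (difference -0.8, SE 0.2, adjusted p = 0.0261 by limma), with its call lost without PH replicate 3 or TCP replicate 1 (range -0.9 to -0.68). Thrsp, a hepatocyte gene of lipid synthesis, was the called member of 25 genes of fatty acid and triglyceride synthesis, at 13.57, 13.21 and 13.18 after PH and 14.88, 14.79 and 14.21 after TCP, against 12.74, 12.66 and 12.53 in control (difference -1.3, SE 0.23, adjusted p = 0.0032 by limma). All 3 genes had their TCP arrays above PH and control. The median of the fatty acid synthesis list was 0.02 for PH and 0.59 for TCP against control. Elovl6, a fatty acid elongase, was at 9.43, 9.29 and 9.55 after PH and 10.98, 12.84 and 9.65 after TCP, with a wide TCP spread, and its difference of -1.73 did not pass the test (SE 0.61, adjusted p = 0.118).

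Cyp17a1, a steroid hydroxylase outside the CAR list, had the largest difference in the lower direction. Its log2 signals were 5.82, 7.37 and 7.08 after PH and 10.47, 8.86 and 10.47 after TCP, against 10.5, 10.47 and 8.08 in control, so that PH was the group below and control replicate 3 was nearer to PH. The difference was -3.18 ± 0.69 (SE, adjusted p = 0.0112 by limma), -2.18 with the block, and its call was lost without PH replicate 1 or TCP replicate 1 or 3 (range -3.71 to -2.71). None of the 19 measured genes of cholesterol synthesis, the 24 of bile acid synthesis and transport or the 23 of fatty acid oxidation was called. Cyp7a1, the rate-limiting enzyme of bile acid synthesis, was at 9.1, 11.98 and 9.78 after PH and 13.04, 10.82 and 10.28 after TCP, against 12.16, 12 and 11.76 in control, with wide and overlapping groups. Amino acid catabolism had no call among 19 genes, while in 9 of them the 3 PH arrays lay below the 3 TCP arrays (10.2% of all genes did so). Cps1, the entry enzyme of the urea cycle, was at 13.69, 13.83 and 13.77 after PH and 14.61, 14.36 and 14.25 after TCP, against 13.7, 13.6 and 14.01 in control, and its difference of -0.65 did not pass (adjusted p = 0.0542).

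**Figure D4:**
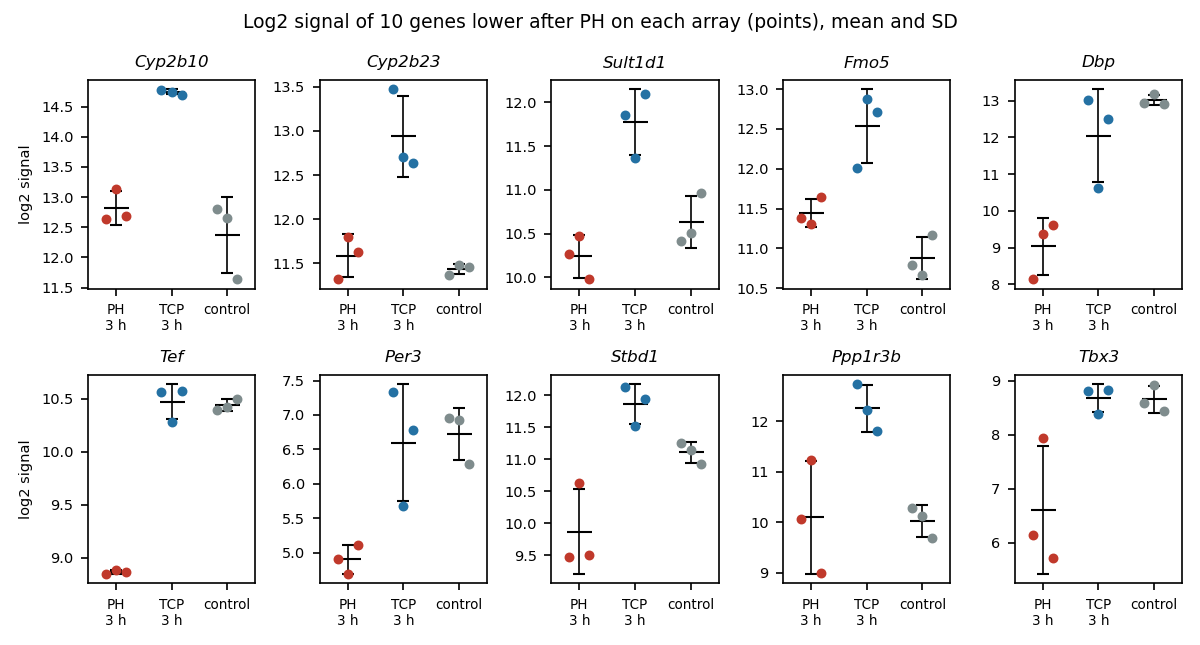
Log2 signal (vertical axis) of 10 genes called lower after PH, on the arrays of PH 3 h, TCP 3 h and control, in this order on the horizontal axis. Points are arrays, lines the mean and bars the SD (n = 3). In the CAR target genes Cyp2b10 (-1.92), Cyp2b23 (-1.36) and Sult1d1 (-1.53), and in Fmo5 (-1.09), the TCP arrays stand above the other 2 groups, and in Dbp, Tef, Per3 and Tbx3 the PH arrays stand below them.

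Clock output genes were lower after PH in 3 of 16 members and higher in 2. Dbp, a PAR bZIP factor under direct clock control, was at 8.14, 9.36 and 9.6 after PH and 13.01, 10.63 and 12.51 after TCP, against 12.95, 13.17 and 12.92 in control. TCP replicate 2 lay between the other TCP arrays and PH. The difference was -3.02 ± 0.71 (SE, adjusted p = 0.0184 by limma), and -1.54 with the block, and its call was lost without PH replicate 1 or TCP replicate 1 or 3 (range -3.73 to -2.54). Tef, of the same family, was at 8.85, 8.89 and 8.87 after PH and 10.56, 10.28 and 10.57 after TCP, against 10.39, 10.42 and 10.5 in control (difference -1.6, SE 0.27, adjusted p = 0.0022 by limma), with its PH arrays close together. A second Tef probe differed by -0.36 (SE 0.20). Usp2, a ubiquitin protease with a daily rhythm, was at 8.39, 7.62 and 8.02 after PH and 10.73, 9.22 and 10.4 after TCP, against 9.15, 9.11 and 8.57 in control (difference -2.11, SE 0.48, adjusted p = 0.0145 by limma), with its call lost without PH replicate 3 or TCP replicate 1 or 3 (range -2.56 to -1.8) and a second probe at -0.54 (SE 0.26). The higher genes were Ppard (1.25, call lost without TCP replicate 1 or 3, range 1.09 to 1.46) and Lonrf3 (1.12, call lost without PH replicate 1 or 3, range 0.98 to 1.31). A second Lonrf3 probe differed by 0.23 (SE 0.28).

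Of 13 core clock genes Per3 was lower and Per1 and Csnk1e were higher. Per3, a period gene, was at 4.91, 4.69 and 5.11 after PH and 7.34, 5.67 and 6.78 after TCP, against 6.96, 6.92 and 6.29 in control (difference -1.7, SE 0.33, adjusted p = 0.00565 by limma). It was detected on 1 of the 3 PH arrays, TCP replicate 2 was again the lowest TCP array, and a second probe differed by -0.41 (SE 0.29). Per1, a period gene that stress hormones and cAMP also induce, was at 9.69, 9.16 and 9.75 after PH and 7.19, 9.21 and 6.97 after TCP, against 8.21, 8.47 and 8.14 in control. TCP replicate 2 overlapped PH, and the difference of 1.74 ± 0.48 (SE, adjusted p = 0.043 by limma) lost its call without PH replicate 1 or 3 or TCP replicate 1 or 3 (range 1.33 to 2.45). Csnk1e, a kinase of period proteins, differed by 1.07 ± 0.24 (SE, adjusted p = 0.0143 by limma), with its call lost without PH replicate 1 or 3 or TCP replicate 1 (range 0.91 to 1.23). The time of day of each sacrifice is not given in the sources used here.

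Some hepatocyte transcription factors and glycogen genes were lower after PH. Of 19 hepatocyte identity factors 2 were lower and none was higher (median -0.46). Tbx3, a T-box factor of pericentral hepatocytes, was at 6.15, 7.95 and 5.72 after PH and 8.82, 8.38 and 8.84 after TCP, against 8.6, 8.93 and 8.45 in control (difference -2.08, SE 0.53, adjusted p = 0.0304 by limma), with its call lost without PH replicate 1 or 3 or TCP replicate 1 or 3 (range -2.75 to -1.63). Its other probes differed by -0.51, -0.54 and -1.84. Foxa2, a pioneer factor of the liver, was at 6.42, 6.57 and 5.48 after PH and 8.51, 7.09 and 8.6 after TCP, against 7.85, 7.95 and 7.5 in control (difference -1.91, SE 0.43, adjusted p = 0.0136 by limma), with its call lost without PH replicate 3 or TCP replicate 1 or 3 (range -2.4 to -1.57). Ppara, a nuclear receptor of fatty acids, was at 5.12, 7.67 and 5.62 after PH and 7.8, 7.19 and 7.52 after TCP, where PH replicate 2 lay among the TCP arrays, and its difference of -1.37 did not pass (adjusted p = 0.0782).

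Of 14 glycogen genes 2 were lower. Ppp1r3b, the hepatic subunit that directs protein phosphatase 1 to glycogen, was at 10.06, 11.24 and 9.0 after PH and 12.73, 12.22 and 11.8 after TCP, against 10.29, 10.12 and 9.68 in control (difference -2.15, SE 0.49, adjusted p = 0.0164 by limma). It rose against control after TCP by 2.22 (adjusted p = 0.0318), its second probe differed by -2.08 (SE 0.59), and its call was lost without PH replicate 1 or 3 or TCP replicate 1 (range -2.72 to -1.6). Stbd1, a glycogen-binding anchor protein, was at 9.47, 10.63 and 9.5 after PH and 12.13, 11.52 and 11.94 after TCP, against 11.25, 11.15 and 10.93 in control, which lay between them (difference -2.0, SE 0.34, adjusted p = 0.00229 by limma). Slc37a4, the glucose 6-phosphate transporter, was lower in PH by a difference of -1.15 ± 0.23 (SE, adjusted p = 0.00608 by limma), and Tpi1, a glycolytic enzyme, by -0.61 ± 0.15 (SE, adjusted p = 0.0226 by limma), the Tpi1 call being lost without PH replicate 1 or 3 or TCP replicate 1 (range -0.7 to -0.51) and its other probes differing by -0.35 (SE 0.28) and -0.18 (SE 0.18). Slc38a3, the glutamine transporter of hepatocytes, differed by -0.81 ± 0.19 (SE, adjusted p = 0.0188 by limma), with its call lost without PH replicate 1 or 3 or TCP replicate 1 or 3 (range -0.94 to -0.71).

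Several of the lower genes with the largest differences belong to none of these lists. Zfp750, a zinc finger transcription factor, was at 5.65, 6.61 and 5.4 after PH and 8.33, 8.19 and 8.87 after TCP, against 7.1, 6.89 and 7.81 in control, which lay between them (difference -2.58, SE 0.34, adjusted p = 0.000667 by limma), and the block model gave -2.72 (adjusted p 0.0925). Slc25a34, a mitochondrial carrier, was at 5.19, 5.4 and 4.93 after PH and 7.0, 6.84 and 7.44 after TCP, against 6.35, 6.33 and 6.34 in control (difference -1.92, SE 0.29, adjusted p = 0.00107 by limma). Zfp157, another zinc finger gene, differed by -1.94 ± 0.37 (SE, adjusted p = 0.00519 by limma), and Cpsf4l, related to a factor of mRNA cleavage, by -1.96 ± 0.39 (SE, adjusted p = 0.00623 by limma). These 4 calls were kept in every fit that left out 1 array. Pdrg1 (difference -2.53, SE 0.69, adjusted p = 0.0409 by limma), Slc13a2, a dicarboxylate transporter (difference -2.12, SE 0.57, adjusted p = 0.0377 by limma), Lrrc24 (difference -2.03, SE 0.47, adjusted p = 0.0167 by limma) and Rtp3 (difference -1.97, SE 0.43, adjusted p = 0.0114 by limma) complete the 15 largest lower differences. Their calls were lost without up to 5 of the 6 arrays each, among them PH replicate 3 in every case, over ranges of -2.94 to -2.29, -2.43 to -1.62, -2.35 to -1.73 and -2.56 to -1.57.

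For some genes the TCP arrays were the ones away from control. Cd83, a surface protein of activated immune cells, was not detected on any TCP array and was detected on all PH and control arrays. It was at least 2.3-fold higher after PH than after TCP (limma adjusted p = 0.00675), with log2 signals of 6.04, 6.64 and 6.3 after PH and 4.73, 4.57 and 4.89 after TCP, against 6.33, 6.4 and 5.98 in control. Enho, which encodes the peptide adropin, was at 10.43, 10.4 and 10.25 after PH and 9.52, 8.76 and 9.61 after TCP, against 10.63, 10.41 and 10.52 in control (difference 1.06, SE 0.23, adjusted p = 0.0101 by limma). Pik3cb, a catalytic subunit of phosphoinositide 3-kinase, was at 9.22, 8.86 and 9.09 after PH and 9.7, 9.77 and 10.2 after TCP, against 8.99, 9.01 and 8.78 in control (difference -0.83, SE 0.18, adjusted p = 0.0105 by limma), with its call lost without TCP replicate 3 (range -0.93 to -0.68). PH overlapped control in each of these 3 genes.

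Further genes detected on all PH arrays and on no TCP array included Hcar2, Ch25h, H4c12, Rab30, Ifrd1 and Mical3. Hcar2, the receptor of hydroxybutyrate and niacin, was at 8.46, 6.07 and 6.7 after PH and 4.51, 4.65 and 4.47 after TCP and was at least 3.86-fold higher (adjusted p = 0.00217). Ch25h, which makes 25-hydroxycholesterol, was at least 3.3-fold higher (adjusted p = 0.00325). For the histone gene H4c12 the bound was 3.7-fold, with the call lost without PH replicate 2 or any 1 of the TCP arrays (range of the log2 difference 1.43 to 2.69), and H4c12 shares most of its sequence with other H4 genes. Rab30, Ifrd1 and Mical3 were at least 3.42-fold, 3.06-fold and 2.4-fold higher, the Rab30 call being lost without any 1 of the arrays but PH replicate 2 (range 1.86 to 3.06), and that of Ifrd1 without PH replicate 3 (range 1.22 to 1.92).

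The difference between PH and TCP at 3 h was also set against that at 1 h and at 6 h. It differed from that at 1 h in 17 genes (0.149%), 15 upward and 2 downward, and differed from that at 6 h in 58 genes (0.507%), 34 higher and 24 lower at 3 h, by limma with the same thresholds, and at an unadjusted p under 0.05 in 1226 and 1406 genes. With the beadchip as a block 1 and 2 genes were called (Apoh for 1 h, and Lratd1 and Tlr5 for 6 h), so that none of the genes described below kept its call there. The count for 1 h was 220 without PH replicate 2, 48 without TCP replicate 2, and 2, 8 and 5 without PH replicate 3, TCP replicate 1 and TCP replicate 3. The count for 6 h was 24 without PH replicate 1 and 22 without TCP replicate 2. Tnfrsf12a had a difference of -0.36 at 1 h, 3.79 at 3 h and 4.02 at 6 h. Its PH arrays at 1 h were at 6.67, 6.11 and 6.73, below all PH arrays at 3 h. Tnfrsf1b, the second TNF receptor, had differences of -1.29, 1.71 and 1.39, and at 1 h its TCP arrays, at 7.94, 7.55 and 7.88, were above the PH arrays, at 6.22, 6.66 and 6.61. A second Tnfrsf1b probe differed by 0.30 at 3 h (SE 0.29). Jund was near 7 in both treatments at 1 h, with differences of -0.16, 2.35 and 1.72, and Gcnt2 had -0.32, 2.36 and 2.37. Timp1 and Mical3 had 0.01 and -0.17 at 1 h. Angptl4, an inhibitor of lipoprotein lipase, was among the 15 genes whose difference moved upward, being -3.24 at 1 h and -0.08 at 3 h, with no call between the treatments at 3 h.

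Against 6 h, 3 of the named genes differed. Cyp17a1 had a difference of -3.18 at 3 h and 1.52 at 6 h, when its PH arrays were at 9.43, 9.75 and 10.53 and its TCP arrays at 8.07, 7.78 and 9.29, so that its order was the opposite of that at 3 h. Cyp2c55 had -1.85 at 3 h and -5.29 at 6 h, with TCP arrays at 11.68, 11.30 and 11.47 at 6 h. Pik3cb had -0.83 and -2.63, with TCP arrays at 11.10, 10.78 and 11.26 at 6 h. For both the PH arrays at 6 h, at 6.64, 6.72 and 5.23 for Cyp2c55 and 8.32, 8.62 and 8.33 for Pik3cb, lay below the TCP arrays.

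**Figure D5:**
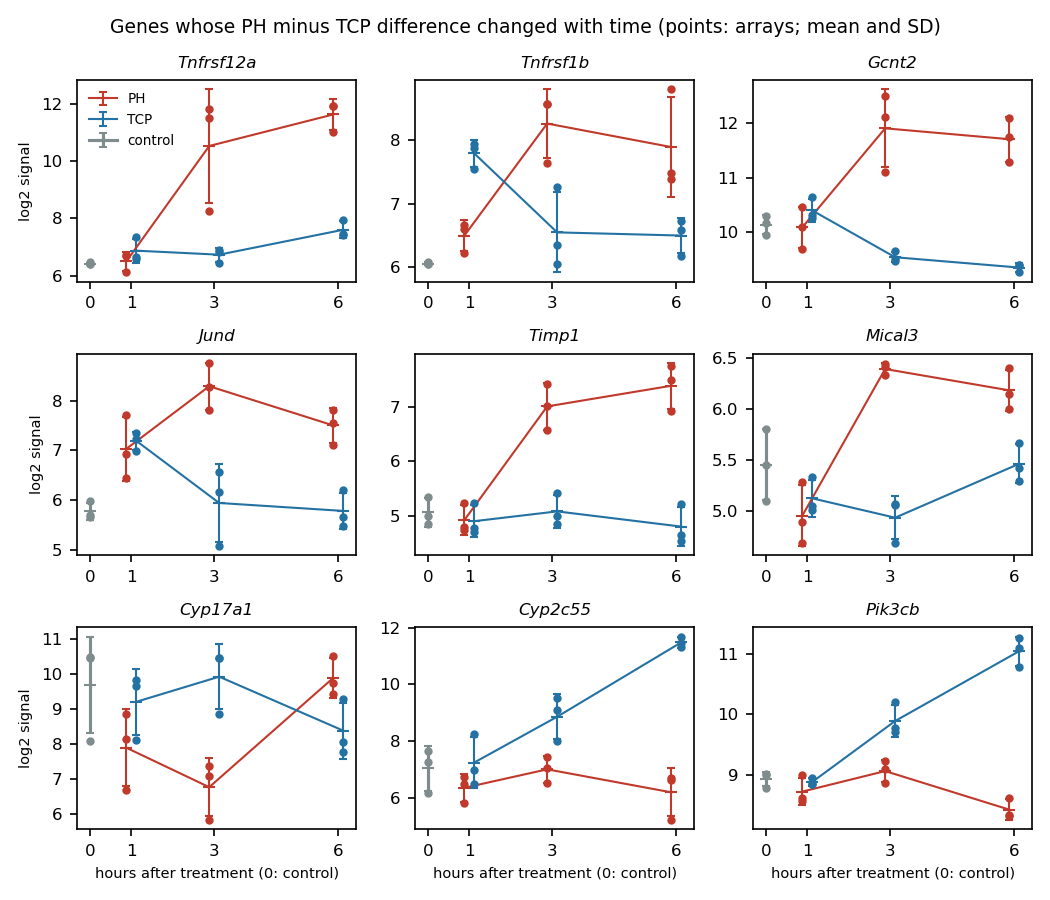
Log2 signal (vertical axis) of 9 genes after PH and after TCP by hour, with control at 0 h (horizontal axis). Points are arrays, lines join the means and bars are the SD (n = 3). In Tnfrsf12a, Timp1 and Mical3 the treatments separate between 1 and 3 h, and in Cyp2c55 and Pik3cb the TCP arrays keep climbing to 11.48 and 11.05 on average at 6 h.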

How the data were processed

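Liver RNA of 21 mice (7 groups of 3) was hybridised to Illumina mouse beadchips, 1 array a mouse. The deposited table holds the scanner's mean signal intensities, which the authors exported without normalisation, and a detection p-value for each probe and array, as deposited. A second deposited table holds log2 values that the authors had quantile normalised, and it was used as an alternative only. How these log2 values were transformed beyond that is not given in the sources used here. Their median was 7.94 on every array. Over probes detected on all arrays, their slope against quantile normalised signals without background correction was about 0.83. Compared with the main values, differences on that scale were smaller by unlike amounts, for example -2.59 in place of -3.02 for Dbp and 1.01 in place of 3.48 for Btg2.

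Intensities were background corrected, quantile normalised and log2 transformed with an offset of 16 (neqc, limma 3.58.1, R 4.3.3). Of 45281 probes, 34885 had 1 gene symbol in the platform annotation, 18 had several and 10378 had none. Probes with 1 symbol and a detection p-value under 0.05 on at least 3 arrays were kept (17970), and of several probes the brightest was taken, giving 11442 genes. A linear model of the 7 groups with moderated variances gave each comparison, with Benjamini-Hochberg adjustment over all genes. Values given for a second probe of a gene come from the same model fitted over the probes of the named genes, so that standard errors differ slightly from those of the main model. Each array is a separate mouse. Where every array of 1 treatment left a gene undetected, its fold was given as a lower bound, the mean of the other group over the higher of the lowest detected signal and its own signal. The model was tested on simulated data with independent normal noise for each gene. That simulation held no beadchip effect and no array that stood apart, so that it cannot speak to these limits. 3 h was compared with the other times by interaction terms.

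The comparison, the gene lists and the rules were chosen with earlier results of these data known. Named genes are the 15 largest differences in each direction whose groups did not overlap, the study's 6 genes measured by PCR, up to 6 called genes of a list or otherwise 2, the genes called with the beadchip as a block, and up to 10 undetected in 1 treatment. Other genes named were chosen after their values were seen. Promoter sequences came from RefSeq (GRCm38.p6), with some windows of a gene overlapping. Same-numbered mice did not deviate together (correlations of -0.04, -0.07 and -0.04), so that replicate numbers do not pair them.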

Additional observations from a re-analysis of the deposited data

Results flagged for a closer look

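For 9 of the named genes the PH minus TCP difference at 3 h differed from that at another time, by an interaction term in limma over all genes, each with 3 arrays a group. Against 1 h, the difference at 3 h was larger by 4.16 on the log2 scale for Tnfrsf12a (SE 0.82, adjusted p = 0.0493) and by 3.0 for Tnfrsf1b (SE 0.48, adjusted p = 0.0188). It was larger by 2.68 for Gcnt2 (SE 0.39, adjusted p = 0.0102) and by 2.51 for Jund (SE 0.5, adjusted p = 0.0493). It was larger by 1.91 for Timp1 (SE 0.37, adjusted p = 0.0493) and by 1.63 for Mical3 (SE 0.28, adjusted p = 0.0199). Against 6 h, it was -4.7 for Cyp17a1 (SE 0.97, adjusted p = 0.0383), 3.43 for Cyp2c55 (SE 0.69, adjusted p = 0.0348) and 1.79 for Pik3cb (SE 0.25, adjusted p = 0.00272), where a positive value means a higher PH minus TCP difference at 3 h. With the beadchip as a block 1 gene in all was called against 1 h (Apoh, in the lower direction) and 2 against 6 h (Lratd1 and Tlr5), and none of the 9 genes kept its call.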

How the results depend on the processing

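The called named genes were chosen on these same arrays, which every alternative reuses. Where the groups do not overlap, leaving out 1 array cannot reverse a direction, so that kept directions are no independent support. All 109 named genes that were called kept their direction under every alternative that gave them a value, but not all kept their call. It was kept by 3 with the beadchip as a block, 57 from the 6 arrays alone, 65 on the authors' values, 91 with the median shift, 27 against 1.5-fold, 0 with the t-test, 52 of the 52 that passed the methods' filter, and 67 to 103 without 1 array. The 499 calls (300 higher and 199 lower after PH) became 3 with the beadchip as a block (3 higher, 0 lower), 147 from the 6 arrays alone (114 and 33), 288 with a median shift in place of quantile normalisation (204 and 84), 189 on the authors' normalised values (122 and 67), 275 of 569 genes with the methods' filter, which keeps bright genes that differ from their own median on these arrays (178 and 97), 42 when tested against a change of 1.5-fold (38 and 4), and 0 with a plain unmoderated t-test after adjustment (1291 at an unadjusted p under 0.05). The methods' filter selected genes on the same 6 arrays that were then compared, and the adjustment covered only those genes. Its 275 calls and the 52 of 52 kept therefore cannot be set beside the other settings. Array weights gave 724 calls, 417 higher and 307 lower. Of all calls 60.1% were higher after PH, against 77.6% from the 6 arrays alone, 70.8% with the median shift and 90.5% in the test against 1.5-fold. Moderation with trend and robust settings, an alternative chosen after seeing the data, gave 486 calls.

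Leaving out 1 array gave 203 to 842 calls, 145 to 487 higher and 58 to 355 lower, and the members called over all lists numbered 67 to 153. They numbered 2 with the beadchip block and 70 on the authors' values. The replicate block, for which the numbers do not pair the mice, gave 466 calls. For the step from 1 h, 17 calls became 1 with the beadchip block, 9 with the replicate block, 3 on the authors' values and 2 to 220 without 1 array. For the step to 6 h, 58 calls became 2 with the beadchip block and 22 to 64 without 1 array. On other settings the step from 1 h had 5 calls with the median shift, 6 without background correction, 10 without the filter on dim probes, 4 with the methods' filter, 0 against 1.5-fold and 135 with array weights, and the step to 6 h had 25, 79, 30, 18, 2 and 27. The causes were not tested. The number of arrays limits precision, and dim probes have compressed differences.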

Other observations

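Genes outside the lists were grouped after their values were seen, so that no test was made of them as groups. Of 21 measured genes of the core histones H3 and H4, 8 were called higher after PH than after TCP by limma (2.62% of all genes were) and none lower (median 1.4, range -0.3 to 2.19), and 5 of the calls were kept in every fit that left out 1 array. Against control the medians were 0.7 for PH and -0.46 for TCP. None of 29 genes of H2A and H2B was called (median 0.29). Many genes of the same histone type are close copies of each other, so that a probe may take signal from several of them.

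Of 10 measured genes of platelets 4 were called higher after PH, against 2.62% of all genes (median 0.86), with medians of 0.96 for PH and -0.02 for TCP against control, and 2 of these calls were kept in every fit that left out 1 array.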
